A study of Mus musculus with 23 samples.

Results

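The 10 genes described here are commonly used to recognise reactive astrocytes. They are Gfap, Vim, Serpina3n, Osmr, Cd44, Lcn2, Timp1, S1pr3, Cd109 and Steap4, taken by gene symbol from a table of 55335 genes, and each symbol matched 1 row. They were read in 23 RNA-seq libraries of whole mouse hippocampus from 2 strains of female mice, 3xTg mice, bred as a model of Alzheimer's disease, and wild-type (WT) controls. The 3xTg mice carry, among their alterations, human APPSwe and tauP301L transgenes driven by a regulatory element of the neuronal Thy1 gene, and the WT mice are C57BL/6J x 129S1 hybrids of the stock B6129SF2/J, in which single mice differ in the parental alleles they carry. The 4 WT-8M and 4 3xTg-8M mice were 8 months old and neither operated on nor treated. All 10-month mice had carried a pump that fed a lateral ventricle for 28 days with either the vehicle, artificial cerebrospinal fluid with 0.8% DMSO (WT-D, n = 4, and 3xTg-D, n = 4), or 80 µM of ab142089 in that vehicle (WT-S, n = 3, and 3xTg-S, n = 4). The compound ab142089, here called SCDi, blocks stearoyl-CoA desaturase (SCD), which puts the first double bond into saturated fatty acids. The 8-month mice differ from the 10-month mice in age and in the pump at the same time, so no difference between the ages was tested. The 8-month sample labels also carry a letter L before the tissue code. The 10-month labels lack it, and its meaning is not given.

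Astrocytes respond to injury, inflammation and protein deposits with a state called reactive. They enlarge, fill with the intermediate filament proteins GFAP and vimentin, and secrete acute-phase proteins, many of which are switched on by cytokines of the interleukin-6 family acting through the receptor OSMR or its relatives and the transcription factor STAT3. Gfap is close to restricted to astrocytes in the hippocampus, while the other 9 genes are also made by cells such as microglia, endothelium, pericytes, meningeal fibroblasts or ependyma. In RNA from whole tissue, fewer cells of a type and less RNA per cell cannot be told apart.

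A level is given in CPM, the reads of a gene divided by all reads counted in genes of that library and scaled to a library of 1000000 reads. The libraries held about 12802300 to 36686400 reads counted in genes. Together the 10 genes summed to 459 to 882 CPM a library. A reference list of 18 genes of resting astrocytes, such as Slc1a2 (the main glutamate transporter) and Aqp4 (a water channel), summed to 8796 to 10403 CPM, so astrocyte RNA was present in every library. Thy1, the gene whose regulatory element drives the transgenes, was at 522 to 753 CPM in the 11 WT libraries and at 1323 to 2263 CPM in the 12 3xTg libraries, so the strains did not overlap and no library went against its strain label. A few libraries stood apart in other ways. Genes of the choroid plexus, a tissue next to the hippocampus, summed to 382 CPM in 3xTg-8M 4, 392.99 CPM in WT-S 2 and 271 CPM in 3xTg-S 2, against 38.4 to 141 CPM in all others. In 3xTg-8M 4 and 3xTg-S 2 the slope of log2 level on log2 transcript length, a measure that moves with RNA quality and library preparation, was 0.652 and 0.681, and the other libraries had 0.740 to 0.827. Where leaving out 1 of these 3 libraries changes whether a member is called, both values are given.

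Per kilobase of exon, which puts genes of different length on one scale, the 10 genes covered a wide range. In 3xTg-D the mean level was 114.8 CPM per kb for Gfap, 28.9 CPM per kb for Serpina3n, a secreted protease inhibitor, and 12.5 CPM per kb for Vim. S1pr3 (a receptor for sphingosine 1-phosphate), Cd109 (a membrane protein that binds proteases), Osmr and Cd44 (a receptor for hyaluronan) followed between 1.08 and 2.33 CPM per kb. Lcn2 (lipocalin 2, an iron-binding acute-phase protein), Timp1 (an inhibitor of matrix metalloproteinases) and Steap4 (a metalloreductase) were at or below 0.836 CPM per kb. The last 3 rested on few reads: over all 23 libraries Lcn2 had 295 reads, Steap4 150 and Timp1 41. They failed the expression filter of most tests, which 7 of the 10 genes passed in all 6 pairwise comparisons.

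The sequence before the transcription start is shown for Serpina3n and Gfap, the member called at 8 months and the member most tied to astrocytes. Both windows are the 250 bases upstream of the RefSeq start (build GRCm38.p6), printed 5′ to 3′ on the strand of the gene. Serpina3n is at chr12:104406458-104406707, plus strand, between genes, and Gfap at chr11:102897201-102897450, minus strand, in an intron of longer annotated Gfap transcripts. Capitals would mark TTCNNNGAA, the core letters that STAT factors bind, which read the same on both strands.
Serpina3n: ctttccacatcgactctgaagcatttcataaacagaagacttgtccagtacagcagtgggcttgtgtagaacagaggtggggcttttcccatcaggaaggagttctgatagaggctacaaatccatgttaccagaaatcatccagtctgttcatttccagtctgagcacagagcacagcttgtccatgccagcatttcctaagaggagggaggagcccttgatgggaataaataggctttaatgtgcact
Gfap: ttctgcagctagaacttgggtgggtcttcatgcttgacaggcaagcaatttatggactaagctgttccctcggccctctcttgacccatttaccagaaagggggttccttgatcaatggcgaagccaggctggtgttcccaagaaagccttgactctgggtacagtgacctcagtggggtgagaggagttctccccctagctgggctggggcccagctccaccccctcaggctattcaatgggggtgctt
Neither window holds these letters, so no base is in capitals, and sequence outside the 250 bases was not searched. RefSeq windows of this kind existed for 9 of the 10 genes, all but Cd109. Among these 9, only Steap4 held TTCNNNGAA, as TTCCCGGAA starting 116 bases before its start (coded as -116). Of 32851 windows of the same length over all genes, 7.02% held it. A match of letters is a description and not a binding site.

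**Figure D1:**
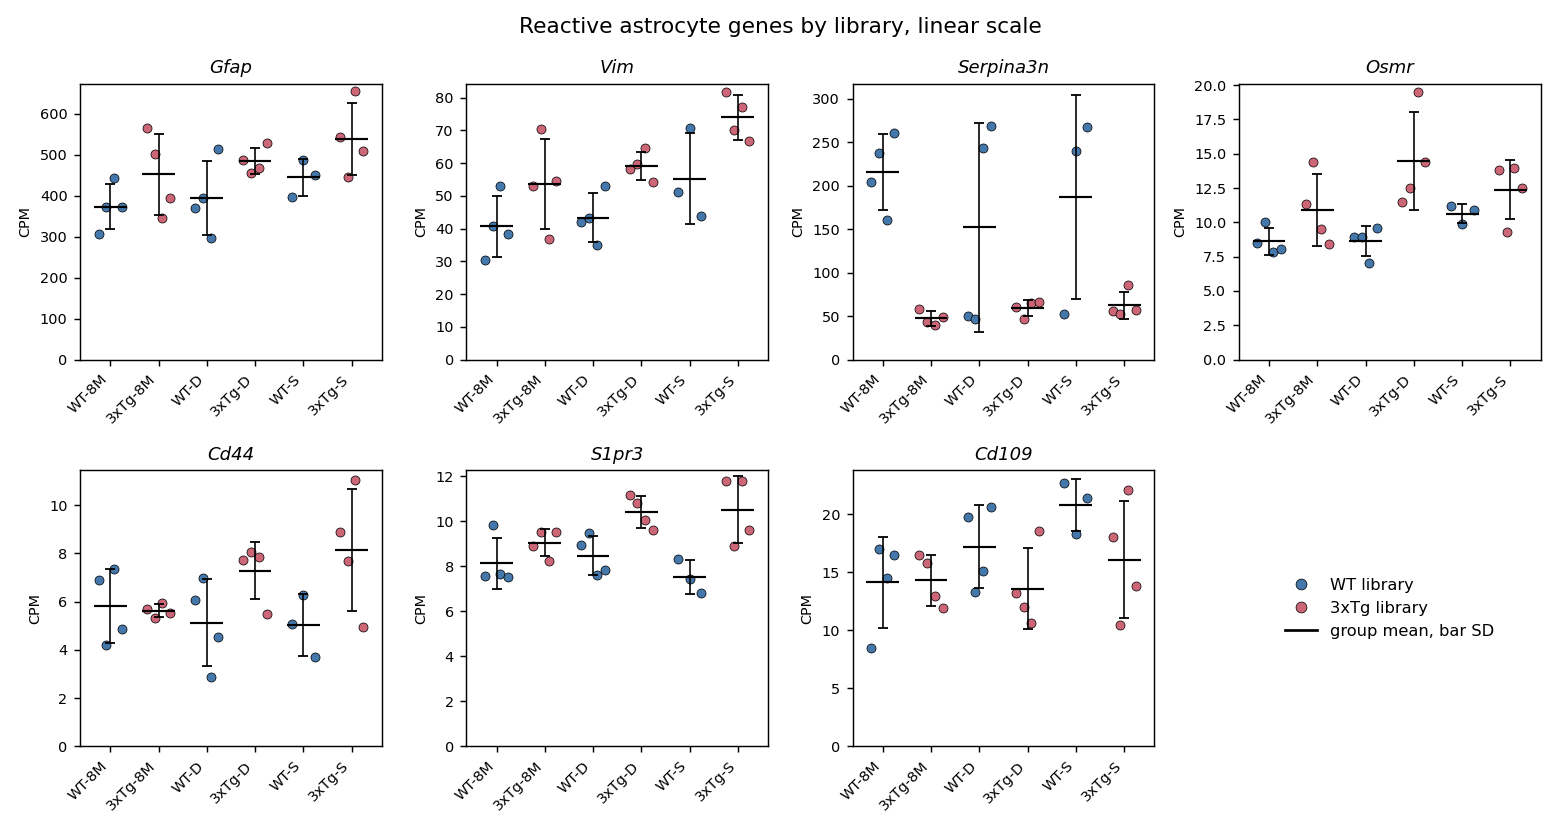
Level of 7 genes in each of the 23 libraries, in CPM on linear axes that start at 0, by group. Each point is 1 library, the line is the group mean and the bar its SD. Serpina3n sits between 39.6 and 85.8 CPM in all 3xTg libraries and at 2 separate levels among WT libraries, while Vim is highest in 3xTg-S.

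The comparison of 3xTg-8M with WT-8M asks how the strains differ in untreated mice. Of the 7 genes tested, 1 passed the test, and it was lower: Serpina3n. This gene was at 204, 238, 161 and 260 CPM in the 4 WT-8M libraries and at 58.5, 42.7, 39.6 and 49.5 CPM in the 4 3xTg-8M libraries. The groups did not overlap, and Serpina3n was 4.51-fold lower in 3xTg-8M (log2 fold change -2.17 ± 0.16 SE, adjusted p = 1.34e-05, edgeR's quasi-likelihood test with Benjamini-Hochberg adjustment over 15483 genes). It was called in all 11 alternative settings, with adjusted p-values up to 0.000173. The animal numbers of these mice are adjacent in pairs within each strain, and leaving out 1 library cannot test whether such pairs are alike. Across all genes tested, 2.58% were called in this comparison.

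None of the other members passed that threshold at 8 months with the filter on low counts, and without the filter Vim and Lcn2 did. Passes found only without the filter carry a limit that is given with Gfap below. Vim had a log2 fold change of 0.41 (95% interval 0.01 to 0.81, adjusted p = 0.271, edgeR) and Osmr, the receptor subunit for oncostatin M, one of 0.34 (0.01 to 0.67, adjusted p = 0.273, edgeR). Gfap reached 565 and 502 CPM in 3xTg-8M 1 and 2 but 346 and 395.3 CPM in 3xTg-8M 3 and 4, and the WT-8M libraries lay at 307 to 444 CPM. The groups thus overlapped for Gfap, whose log2 fold change was 0.28 (-0.03 to 0.59, adjusted p = 0.339, edgeR). For Cd44, S1pr3 and Cd109 the fitted log2 differences were -0.05, 0.16 and 0.04, each with an interval across 0. At an unadjusted p under 0.05 there were 3 members, 2 higher and 1 lower, of 7, and 17.4% of all genes. Without 3xTg-8M 4, 1 of the libraries that stood apart, the log2 fold change was -2.20 for Serpina3n (adjusted p = 0.000173, edgeR) and 0.44 for Osmr (adjusted p = 0.153, edgeR).

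Serpina3n did not keep this pattern in the infused WT mice. It was at 50.2, 46.2, 243 and 269 CPM in the 4 WT-D libraries and at 52.4, 240 and 268 CPM in the 3 WT-S libraries. WT-D 1, WT-D 2 and WT-S 1 were thus within the range of the 12 3xTg libraries, and the other 4 infused WT libraries within or just above that of WT-8M. No such split was seen in 3xTg mice, where the gene was at 59.9, 46.6, 65.1 and 66.8 CPM in 3xTg-D and at 55.7, 52.3, 85.8 and 57.2 CPM in 3xTg-S. With the WT libraries at 2 levels, the fitted differences had wide errors: -1.36 ± 0.49 (SE, log2) for 3xTg-D against WT-D (adjusted p = 0.248, edgeR) and -1.57 ± 0.39 for 3xTg-S against WT-S (adjusted p = 0.095, edgeR). Without WT-S 1 the second difference was -2.01 and passed the test (adjusted p = 3.53e-05, edgeR). SCDi against vehicle gave 0.07 in 3xTg (95% interval -0.27 to 0.40) and 0.28 in WT (-1.18 to 1.74) on the log2 scale.

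The gene next to it showed the same division of libraries. Serpina3n (chr12:104406729-104414329) is the last of 14 annotated Serpina3 genes and pseudogenes in a row on chromosome 12, and Serpina3m, a paralog, ends 12472 bases before it. Serpina3m was named after its values were seen. It had 1, 1 and 0 reads in WT-D 1, WT-D 2 and WT-S 1, 35 to 173 reads in the other 8 WT libraries and 0 to 6 reads in the 12 3xTg libraries. Serpina3g, which lies earlier in the row, had 12 to 91 reads in every library and was not called in any comparison (adjusted p = 0.319 at 8 months, edgeR). Serpina3m shares annotated bases with Serpina3k, and paralogs of this family can share reads, so counts that rest on uniquely mapped reads are uncertain for them. In Thy1 these 3 libraries were at 588, 627 and 634 CPM, within the range of the other WT libraries, and in App, whose human form is a transgene, at 1698, 1716 and 1642 CPM, against 1926 to 2431 CPM in 3xTg. What sets the 2 levels of Serpina3n among WT libraries was not tested, and each 10-month comparison with WT-D or WT-S mixes both levels. All WT-8M libraries were at the higher level, so the 8-month comparison holds only that level of WT.

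**Figure D2:**
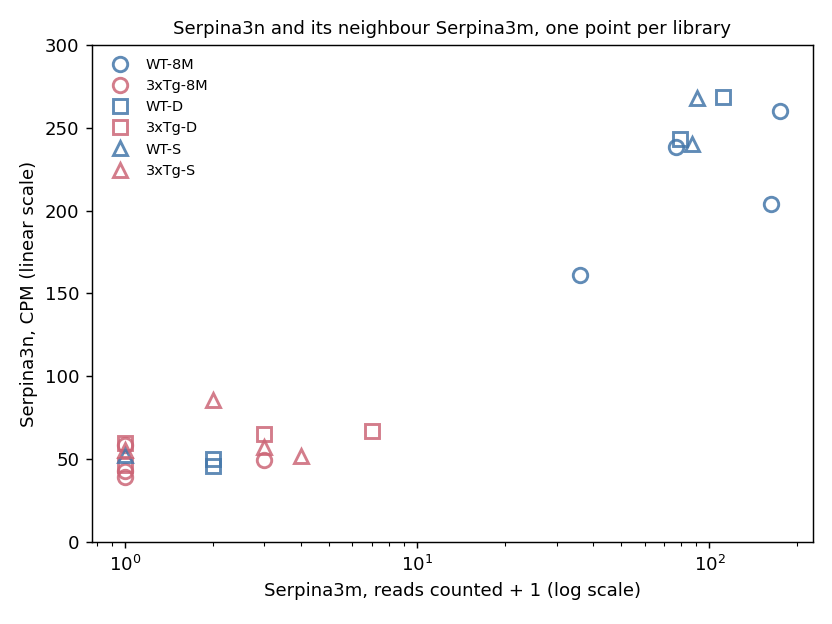
Serpina3n level (CPM, linear axis) against reads of Serpina3m plus 1 (log axis), with 1 point for each of the 23 libraries, coloured by strain and shaped by age and infusion. The 8 WT libraries with 35 to 173 Serpina3m reads are those with 161 to 269 CPM of Serpina3n, and the other 3 WT libraries lie among the 3xTg libraries.

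At 10 months edgeR called Osmr between the vehicle groups and Vim between 3xTg-S and WT-D. Vim, the gene for vimentin, was at 42.0, 43.1, 34.9 and 53.1 CPM in WT-D and at 58.1, 59.8, 64.5 and 54.2 CPM in 3xTg-D. In mice given SCDi it was at 51.3, 70.8 and 43.8 CPM in WT-S and at 81.7, 70.3, 77.3 and 66.7 CPM in 3xTg-S. The order of the group means was WT-8M (40.7 ± 9.3 CPM, SD, n = 4), WT-D (43.3 ± 7.5, n = 4), 3xTg-8M (53.7 ± 13.8, n = 4), WT-S (55.3 ± 14.0, n = 3), 3xTg-D (59.2 ± 4.3, n = 4) and 3xTg-S (74.0 ± 6.8, n = 4). Only the last step in this order, from 3xTg-D to 3xTg-S, lay between groups that did not overlap.

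Under vehicle, every 3xTg-D library had more Vim than every WT-D library, a log2 difference of 0.44 ± 0.10 (SE), which missed the adjusted threshold (adjusted p = 0.0582, edgeR). It passed under 4 of 13 alternatives, DESeq2's likelihood ratio test included. Between 3xTg-S and WT-D, the groups at the ends of both factors, Vim rose 1.69-fold (log2 0.76 ± 0.10 SE, adjusted p = 0.0015, edgeR), with no overlap and with the call held in all 13 alternatives. Between 3xTg-S and WT-S the difference was 0.42 ± 0.14 (adjusted p = 0.253, edgeR). Without WT-S 2, which had the highest Vim of its group and the choroid plexus signal named above, it was 0.64 and passed (adjusted p = 0.0167, edgeR). The part of choroid plexus RNA in these values was not tested.

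SCDi against vehicle gave positive Vim differences in both strains, neither of which passed the adjusted edgeR test. In 3xTg the difference was 0.32 ± 0.07 on the log2 scale (adjusted p = 0.378, edgeR), with every 3xTg-S library above every 3xTg-D library. DESeq2's likelihood ratio test gave an adjusted p of 0.0479 for it. In WT it was 0.34 ± 0.17 (adjusted p = 0.981, edgeR), with WT-S 1 at 51.3 CPM and WT-S 3 at 43.8 CPM inside the WT-D range, and 0.12 without WT-S 2. Over both strains in 1 model of the 15 libraries the Vim difference was 0.33 ± 0.09 (95% interval 0.14 to 0.52, adjusted p = 0.241, edgeR), and the interaction of strain and treatment was -0.02 (-0.42 to 0.37).

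Osmr binds oncostatin M together with the shared subunit gp130. It was at 8.93, 8.93, 7.04 and 9.59 CPM in WT-D and at 11.5, 12.5, 19.5 and 14.4 CPM in 3xTg-D. All 3xTg-D libraries were above all WT-D libraries, and Osmr rose 1.66-fold (log2 0.73 ± 0.16 SE, adjusted p = 0.0431, edgeR). That call stood close to the threshold: over 13 alternatives the adjusted p ran from 7.2e-05 to 0.0983, and it passed in 5 of them. It was lost on leaving out any one of WT-D 1, 2, 3 and 4 and 3xTg-D 2, 3 and 4, with log2 differences of 0.57 to 0.80, and held without 3xTg-D 1. It was also lost when animals were blocked in runs of 4 by their numbers, runs that hold about 1 mouse of each infused group (0.71, adjusted p = 0.0943, edgeR). Osmr was the only member called between 3xTg-D and WT-D, where 1.39% of all genes were called.

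Under SCDi the strains overlapped in Osmr. Its levels were 11.2, 9.88 and 10.9 CPM in WT-S and 13.8, 9.29, 14.0 and 12.5 CPM in 3xTg-S, so that 3xTg-S 2 fell below all WT-S libraries. The log2 difference between these groups was 0.22 (95% interval -0.10 to 0.54, adjusted p = 0.676, edgeR). SCDi against vehicle gave -0.23 (-0.60 to 0.13) in 3xTg and 0.29 (0.02 to 0.56) in WT, where all 3 WT-S libraries were above all WT-D libraries. Without 3xTg-S 2 the value in 3xTg was -0.11, and it ran from -0.32 to -0.06 over all libraries left out in turn. The difference between these effects, tested as an interaction, was -0.52 ± 0.23 (SE, unadjusted p = 0.0398, adjusted p = 0.99996, edgeR), and it is the only member with an unadjusted interaction p under 0.05. Against WT-D, 3xTg-S had 0.51 more Osmr on the log2 scale (adjusted p = 0.086, edgeR), and 0.63 without 3xTg-S 2 (adjusted p = 0.0167, edgeR).

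**Figure D3:**
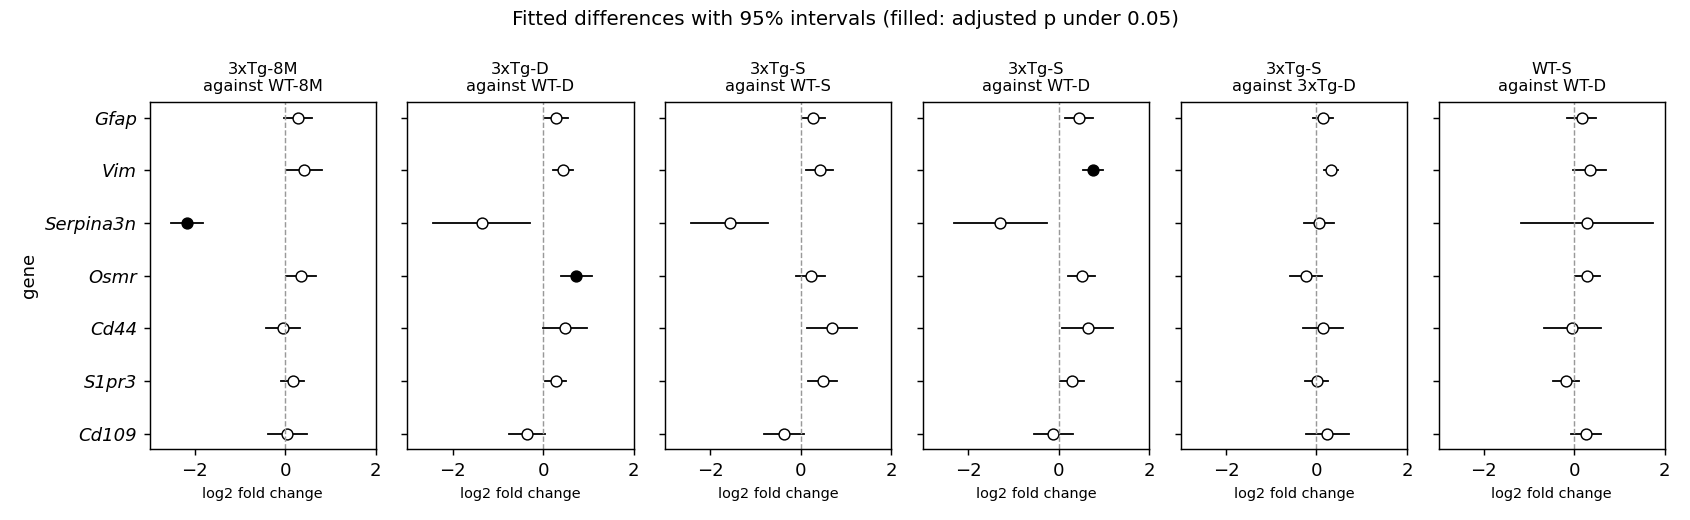
Fitted log2 fold changes of 7 members in the 6 pairwise comparisons, with 95% intervals. Filled points passed an adjusted p of 0.05 (edgeR). They are Serpina3n at 8 months (-2.17), Osmr in 3xTg-D against WT-D (0.73) and Vim in 3xTg-S against WT-D (0.76), and the interval of Serpina3n is widest where WT-D or WT-S enters.

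Gfap, the classic marker of the reactive state, passed no adjusted edgeR test with the filter and all libraries. With no filter on low counts Gfap passed in 3xTg-D against WT-D (adjusted p = 0.0221, edgeR), in 3xTg-S against WT-S (0.00692) and in 3xTg-S against WT-D (3.11e-05). The p-values of that fit have a limit. Serpina3n in 3xTg-S against WT-S kept a log2 difference of -1.57 there, with adjusted p = 4.21e-40 against 0.095 with the filter (edgeR). Yet its WT-S libraries were at 52.4, 240 and 268 CPM. A pass found only with no filter thus does not establish a difference. Gfap was at 370, 393.99, 297 and 514 CPM in WT-D and at 487, 455, 467 and 528 CPM in 3xTg-D. In mice given SCDi Gfap was at 396.5, 487 and 451 CPM in WT-S and at 543, 446, 655 and 510 CPM in 3xTg-S. WT-D 4 alone placed WT-D inside the range of 3xTg-D, since the other 3 WT-D libraries were below all of 3xTg-D. The log2 differences were 0.29 (95% interval 0.02 to 0.56) between the strains under vehicle, 0.28 (0.02 to 0.53) under SCDi and 0.44 (0.13 to 0.75, adjusted p = 0.141, edgeR) between 3xTg-S and WT-D, the last passing without WT-D 4 (0.58, adjusted p = 0.0389, edgeR). SCDi against vehicle gave 0.15 (-0.07 to 0.37) in 3xTg and 0.16 (-0.15 to 0.48) in WT, so a change by SCDi beyond the spread of the libraries was not detected.

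Cd44, S1pr3 and Cd109, which encode proteins of the cell surface, also passed no adjusted edgeR test with the filter and all libraries. With no filter each passed between 3xTg-S and WT-S (adjusted p = 0.00334, 0.0366 and 0.044, edgeR). Cd44 then also passed between 3xTg-S and WT-D (adjusted p = 0.00729, edgeR). These passes carry the limit given for Gfap. S1pr3 was at 8.93, 9.46, 7.63 and 7.84 CPM in WT-D and at 11.2, 10.8, 10.05 and 9.62 CPM in 3xTg-D, without overlap (log2 0.28 ± 0.11 SE, adjusted p = 0.268, edgeR). Under SCDi its groups again did not overlap, with 8.31, 7.43 and 6.82 CPM in WT-S and 8.89 to 11.8 CPM in 3xTg-S (0.48 ± 0.14, adjusted p = 0.19, edgeR). The S1pr3 levels in WT-S and WT-D overlapped, as did those of 3xTg-S and 3xTg-D, whose log2 difference was 0.01 (95% interval -0.24 to 0.26).

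Cd44 ranged from 2.89 to 6.98 CPM in WT-D, 5.51 to 8.06 CPM in 3xTg-D, 3.70 to 6.28 CPM in WT-S and 4.93 to 11.04 CPM in 3xTg-S. Its log2 differences between the strains were 0.49 (95% interval 0.003 to 0.98) under vehicle and 0.69 (0.13 to 1.25, adjusted p = 0.324, edgeR) under SCDi. Cd109 was the only member besides Serpina3n with a lower mean in 3xTg than in WT in both 10-month comparisons. It ranged from 13.3 to 20.7 CPM in WT-D, 10.6 to 18.5 CPM in 3xTg-D, 18.3 to 22.7 CPM in WT-S and 10.5 to 22.1 CPM in 3xTg-S, with log2 differences of -0.36 (-0.76 to 0.04) under vehicle and -0.37 (-0.81 to 0.06) under SCDi.

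Lcn2 differed most between single libraries. It had 0, 1, 0 and 4 reads in WT-8M, 22, 5, 0 and 3 in 3xTg-8M, 5, 0, 1 and 3 in WT-D, and 2, 8 and 0 in WT-S. In 3xTg-D it had 9, 11, 118 and 3 reads, and in 3xTg-S 25, 8, 36 and 31. The 118 reads of 3xTg-D 3 were 7.19 CPM, against 0.209 to 0.726 CPM in the rest of 3xTg-D. The same library had the largest sum of blood-derived and border myeloid genes of any library (15.1 CPM over 7 genes such as S100a8 and Ccr2, against 2.07 to 13.8 CPM in the others). It also had the largest sums of a list of 4 further reactive genes (59.1 CPM, against 16.5 to 43.5 CPM) and of 17 interleukin-6 pathway genes (683 CPM, against 548 to 636 CPM). Its sum of red cell genes was the lowest (4.87 CPM, against 20.3 to 213 CPM). The part of any of these in the Lcn2 value was not tested. Between 3xTg-S and WT-S, Lcn2 differed by 2.73 ± 0.71 on the log2 scale (SE, adjusted p = 0.117, edgeR), which passed without 3xTg-S 2 (3.04, adjusted p = 0.0427, edgeR) and by DESeq2 (2.79, adjusted p = 0.0127). Without WT-S 2, which held 8 of the 10 WT-S reads, it was 4.35 and did not pass (adjusted p = 0.0754, edgeR), and over the 4 fits with a library left out in which Lcn2 met the filter it ran from 2.15 to 4.35 (adjusted p = 0.0427 to 0.295, edgeR). Since WT-S had only 10 reads in all, this fold depends on how near-zero counts are handled.

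Against WT-D, Lcn2 failed the filter and was tested on its own by an exact two-sided permutation test of mean log2 CPM. Between 3xTg-D and WT-D, which overlapped, its difference was 2.30 on the log2 scale (exact p = 0.0571, adjusted 0.143). All 3xTg-S libraries were above all WT-D libraries, a difference of 2.82 on the log2 scale with exact p = 0.0286, the smallest p that 4 against 4 libraries can give, and 0.143 after Benjamini-Hochberg adjustment over the 15 such tests. Timp1, with 0 to 4 reads a library, also had every 3xTg-D and every 3xTg-S library above every WT-D library (exact permutation p = 0.0286 each, adjusted 0.143), but the groups were 0 to 1 reads and 2 to 4 reads a library. Steap4 had 1 to 22 reads a library, and its highest level, 1.61 CPM, was in 3xTg-S 3. It was tested in 3xTg-S against WT-S (log2 0.61, 95% interval -0.67 to 1.89) and over both strains for SCDi (0.82, -0.05 to 1.69), where neither passed.

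**Figure D4:**
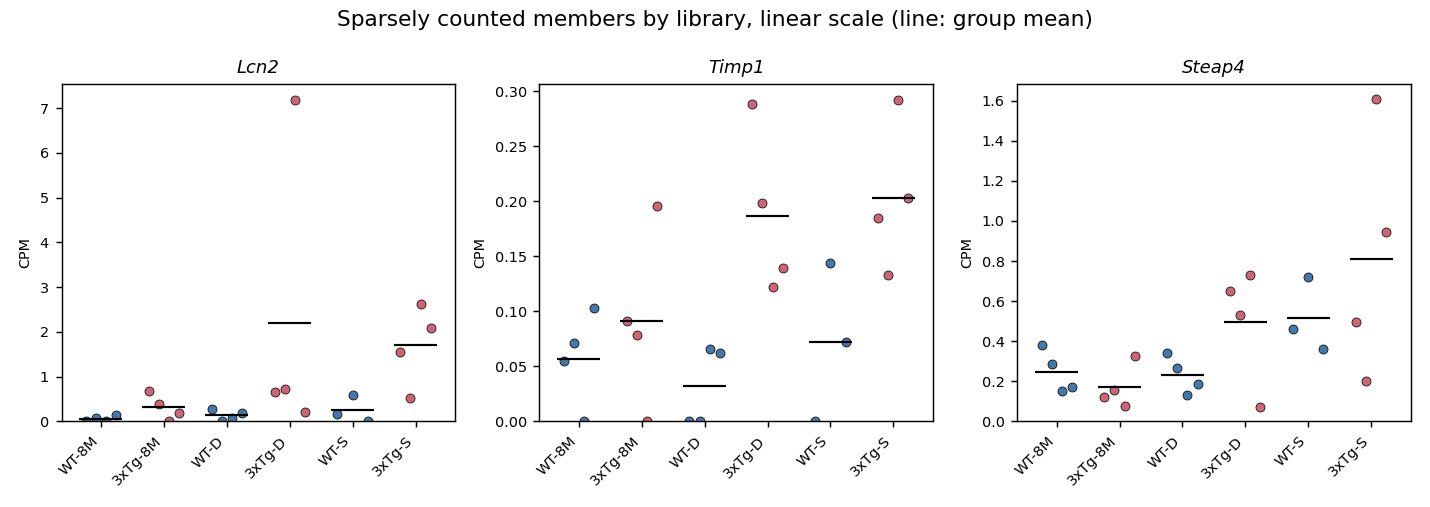
Level of Lcn2, Timp1 and Steap4 in each library, in CPM on linear axes that differ between panels, with the line at the group mean. Lcn2 reaches 7.19 CPM in 1 library of 3xTg-D and 0.531 to 2.63 CPM in the 4 libraries of 3xTg-S, and Timp1 stays below 0.293 CPM.

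Counted together, most of the 10 genes had a higher mean level in 3xTg. The mean level was higher in 3xTg for 7 of 10 at 8 months, 8 of 10 under vehicle and 8 of 10 under SCDi, Serpina3n being lower each time. Among the tested members, the median log2 difference was 0.16 at 8 months (7 genes), 0.29 under vehicle (7 genes), 0.42 under SCDi (9 genes) and 0.44 for 3xTg-S against WT-D (7 genes), beside medians over all genes between -0.003 and 0.006. At an unadjusted p under 0.05, 5 members were higher and 1 lower under vehicle (13.1% of all genes passed in either direction), under SCDi (10.6%) and for 3xTg-S against WT-D (16.9%). At an adjusted p under 0.05, 0 of 9 were called between 3xTg-S and WT-S, where 1.32% of all genes were, and 1 of 7 between 3xTg-S and WT-D, where 2.29% were. By DESeq2's likelihood ratio test 1 member, Lcn2, was called between 3xTg-S and WT-S. The comparisons with WT-D share those 4 libraries, and the comparisons with 3xTg-S share its 4.

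SCDi moved few members past any threshold. Between 3xTg-S and 3xTg-D, edgeR called 0 of 8 members, as it called 0% of all genes, with 1 member (Vim) at an unadjusted p under 0.05 against 11.2% of all genes, and DESeq2's likelihood ratio test called 1 member, Vim. Between WT-S and WT-D it called 0 of 7, again 0% of all genes, with 1 member (Osmr) at an unadjusted p under 0.05 against 3.42% of all genes, and DESeq2 called 0. For the interaction 0 of 9 members and 0% of genes were called, with 1 member (Osmr) and 2.32% of genes at an unadjusted p under 0.05. For SCDi over both strains 0 of 9 members and 0% of genes were called, with 1 member (Vim) and 13.6% of genes at an unadjusted p under 0.05. DESeq2's likelihood ratio test called 0 members for both terms. The members' median log2 difference for SCDi was 0.11 in 3xTg and 0.25 in WT.

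Related gene lists, drawn from general knowledge, were read in the same fits. Of 11 tested genes of the list often called A1, induced by inflammatory signals, all 11 had a positive log2 difference at 8 months (median 0.32) and under vehicle (median 0.60), and edgeR called 0 in either, with 4 and 7 genes at an unadjusted p under 0.05. Of all genes, 17.4% and 13.1% passed that unadjusted threshold. For SCDi against vehicle, 4 of the 11 were positive in 3xTg (median -0.08) and 10 in WT (median 0.24). H2-D1 of this list, a class I antigen-presenting molecule, was called between 3xTg-S and WT-D (0.64, adjusted p = 0.0236, edgeR). Of the list often called A2, Cd14, a receptor for bacterial lipopolysaccharide best known in myeloid cells, rose at 8 months (0.91, adjusted p = 0.0353, edgeR), in 3xTg-S against WT-S (1.01, adjusted p = 0.0206) and in 3xTg-S against WT-D (1.14, adjusted p = 0.024), and no other gene of that list was called. Between 3xTg-D and WT-D the Cd14 difference was larger, 1.41, but did not pass (adjusted p = 0.0939, edgeR). C4b, a complement component that reactive astrocytes and oligodendrocytes make, rose 1.02 on the log2 scale under vehicle (adjusted p = 0.00559, edgeR) and 1.06 between 3xTg-S and WT-D (adjusted p = 0.00757). It belongs to a list of 10 genes known from astrocytes of amyloid models, of which 4 were called between 3xTg-S and WT-D, among them Cst3 (cystatin C, 0.41) and Myoc (myocilin, 1.08). In that comparison 2.29% of all genes were called. A further list of 4 reactive genes had 0 called in every comparison and 2 at most at an unadjusted p under 0.05. Those 2 were in 3xTg-S against WT-S, where 10.6% of all genes passed that unadjusted threshold. There all 4 were tested and higher (median 0.55), while in 3xTg-S against 3xTg-D 3 of 4 were lower (median -0.12).

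In the interleukin-6 family pathway, 17 genes were listed and 12 passed the filter in each pairwise comparison. Socs3, the feedback inhibitor that STAT3 induces, rose 1.54 on the log2 scale between 3xTg-S and WT-D (adjusted p = 0.0067, edgeR). Its level was 0.626 ± 0.140 CPM in WT-D (SD, n = 4), 1.69 ± 1.21 in 3xTg-D (n = 4), 0.856 ± 0.234 in WT-S (n = 3) and 1.86 ± 0.35 in 3xTg-S (n = 4). No other gene of the pathway list was called in any of the 6 pairwise comparisons.

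The 18 reference genes of resting astrocytes passed no test. None of them was called in any of the 8 tests by edgeR, its median log2 difference stayed between -0.04 and 0.06, and 0 to 4 of its genes were higher and 0 to 1 lower at an unadjusted p under 0.05. Partner proteins of the GFAP and vimentin filaments, such as nestin and synemin, had 0 of 9 called in each pairwise comparison by edgeR.

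Some markers of other cells were called in the same comparisons. Of 10 microglial genes, C1qa and C1qb, subunits of complement C1q, were called higher in 3xTg-D than in WT-D (0.49 and 0.48), and in 3xTg-S than in either WT-S (0.44 and 0.54) or WT-D (0.68 and 0.67), and the list summed to 360 to 418 CPM in WT-D, 372 to 560 in 3xTg-D, 390 to 411 in WT-S and 463 to 563 in 3xTg-S. Oligodendrocyte genes were called in 3xTg-S against WT-S (2 of 8) and against WT-D (4 of 8), and red cell genes between 3xTg-S and WT-D (1 of 5, Hbb-bt, 2.45). Of all genes, 1.32% were called in 3xTg-S against WT-S and 2.29% against WT-D. Neuronal, endothelial and mural, meningeal, choroid plexus, ependymal and peripheral myeloid lists had 0 called by edgeR in each comparison, with 0 to 5 genes of a list at an unadjusted p under 0.05, although the choroid plexus median was 1.13 for SCDi in WT and -0.56 for 3xTg-S against WT-S. Meningeal fibroblast genes summed to 84.0 to 139 CPM in WT-D and 56.5 to 199.96 CPM in 3xTg-S. The part of these cells in the values of Vim, Osmr and Cd44 was not tested.

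Within groups the members moved together only in part. After each gene's log2 CPM was centred on its group mean, the 21 pairs of the 7 well-counted members had a median Pearson r of 0.29 over the 23 libraries (range -0.44 to 0.70), which share their sequencing depth and tissue makeup. The highest was Gfap with Vim (r = 0.70, Spearman rho = 0.66, r = 0.64 without the 2 libraries farthest from the median of Gfap). Serpina3n and Vim had r = 0.04. Of 15091 other genes, those most like the mean of the 7 members were Net1 (r = 0.82, rho = 0.81), Gpnmb (0.82, 0.81), Maml3 (0.80, 0.84), Stra6 (0.80, 0.76) and Nptx1 (0.79, 0.81). Without the 2 farthest libraries these r were 0.70 to 0.77. The mean includes Serpina3n, whose 2 levels among WT libraries remain after centring and enter this ranking and its pair correlations. A ranking without Serpina3n was not run.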

How the data were processed

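RNA of 23 mouse hippocampi was sequenced single-end, and the animal numbers in the labels give 1 mouse a library. The authors trimmed reads with Trimmomatic 0.35, mapped them to GRCm38 with STAR 2.5.1b and deposited raw read counts per gene. Whether counting used strand is not given in the sources used here. The counts cover 55335 genes, 34928 of them with a read. The 4 lines that name no gene (24.7% to 30.9% of reads) were left out of totals, and 0 columns lacked a sample. Groups came from the labels, and the full strain name of the 3xTg mice is not reported here. Pairwise fits used only the libraries of both groups, in edgeR 4.0.16 in R 4.3.3 (filterByExpr, TMM scaling, quasi-likelihood test, Benjamini-Hochberg adjustment over all genes tested, called under 0.05). Interaction and inhibitor terms were fitted over the 15 libraries of 10 months. CPM uses gene-count totals without TMM. Intervals are 95% intervals of the fitted log2 fold change. P-values measure only the spread between these libraries. Members failing the filter were tested by exact two-sided permutation of mean log2 CPM (prior count 2). Lengths and exons came from Gencode M21, and upstream windows from RefSeq.

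All 10 members are named, with at most 3 called genes of each other list per comparison, by smallest adjusted p, and the 5 genes most like the mean of the 7 members tested in all 6 comparisons. Serpina3m, Serpina3g, Thy1 and App were added after their values were seen. The members and lists were chosen with earlier results of these data known. The fits were tested on simulated counts first. Alternatives were DESeq2 size factors, no filter, DESeq2 1.42.0, an unadjusted p under 0.01, each library left out, all 10-month libraries in 1 fit, and a block for runs of 4 animal numbers.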

Additional observations from a re-analysis of the deposited data

Results flagged for a closer look

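In 50 sets of 1 member in 1 group of 4 libraries, 4 had a library whose gap to its nearest neighbour was over the 95% limit of Dixon's test, and chance passes about 1 in 20. Serpina3n was at 85.8 CPM in 3xTg-S 3, against 52.3 to 57.2 CPM in the other 3 libraries of the group. Cd44 was at 5.51 CPM in 3xTg-D 4, against 7.72 to 8.06 CPM. Lcn2 was at 7.19 CPM in 3xTg-D 3, against 0.209 to 0.726 CPM. S1pr3 was at 9.83 CPM in WT-8M 2, against 7.53 to 7.64 CPM.

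Osmr drew attention because SCDi against vehicle had opposite signs in the strains, -0.23 in 3xTg (-0.11 without 3xTg-S 2) and 0.29 in WT on the log2 scale. The difference of the effects was -0.516 (edgeR interaction, unadjusted p = 0.0398, adjusted p = 0.99996), and it was -0.57 without WT-S 2 and -0.40 without 3xTg-S 2.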

How the results depend on the processing

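The call of Serpina3n at 8 months and that of Vim between 3xTg-S and WT-D held under every alternative run, and that of Osmr between 3xTg-D and WT-D did not. With no filter on low counts the called members went from 1 to 3 at 8 months and from 1 to 5 between the vehicle groups. Over all genes the number called also rose in both comparisons, from 399 and 216 with the filter, with more genes tested. These member counts are thus not a change particular to the members. With no filter the called members also went from 0 to 7 between the SCDi groups, from 1 to 7 for 3xTg-S against WT-D and from 0 to 1 for SCDi in 3xTg. With the filter 206, 356 and 0 of all genes were called in these 3 comparisons. For SCDi over both strains the count went from 0 to 1 with no filter and to 1 at an unadjusted p under 0.01. DESeq2's likelihood ratio test called 2 between the vehicle groups, 1 between the SCDi groups, 2 for 3xTg-S against WT-D and 1 for SCDi in 3xTg. An unadjusted p under 0.01 gave 2, 3, 3 and 1 in the same 4 comparisons. DESeq2's size factors gave 2 in 3xTg-D against WT-D, and the block for animal numbers 0. In 3xTg-D against WT-D more of all genes were also called by DESeq2's likelihood ratio test and at the unadjusted threshold. With the size factors the number over all genes rose only slightly. With 1 library left out the counts were 0 to 1 between the vehicle groups, 0 to 1 between the SCDi groups and 1 to 3 for 3xTg-S against WT-D. Over all genes the same fits called 125 to 200, 105 to 286 and 155 to 341. Leaving out WT-D 4 replaced Osmr by Vim (0.54, adjusted p = 0.00791, edgeR). The cause of these changes was not tested, and the p-values with no filter carry the limit given with Gfap. Where no count over all genes is given for a setting, the count of members is not a result about the members.

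Among the values of single members under an alternative, 856 kept their sign and call, 54 changed sign, 35 passed only there and 8 were lost, and none of those that changed sign was called. Under the block Lcn2 was 0.10 in 3xTg-S against 3xTg-D and 0.17 for SCDi over both strains, where DESeq2 gave 0.12, and Cd44 was 0.090 in WT-S against WT-D. With 1 library left out, the log2 fold change in 3xTg-8M against WT-8M ran from -0.17 to 0.056 for Cd44 and from -0.16 to 0.14 for Cd109. In 3xTg-S against WT-D, Cd109 ran from -0.32 to 0.048. In 3xTg-S against 3xTg-D the ranges were -0.12 to 0.15 for Serpina3n, -0.79 to 1.64 for Lcn2, -0.052 to 0.084 for S1pr3 and -0.029 to 0.33 for Cd44. In WT-S against WT-D they were -0.050 to 0.72 for Serpina3n and -0.24 to 0.15 for Cd44. For the interaction they were -0.16 to 0.093 for Gfap, -0.65 to 0.12 for Serpina3n, -0.21 to 0.18 for Cd109, -0.18 to 0.20 for Vim and -1.83 to 0.89 for Lcn2. For SCDi over both strains they were -0.040 to 0.16 for Cd44, -0.055 to 0.11 for Osmr and -0.54 to 1.43 for Lcn2.

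Lcn2, Timp1 and Steap4 rest on few reads, so differences in them were mostly not detectable at this depth. Age and the pump cannot be told apart. Replicate numbers were given in accession order and pair no samples. The animal numbers of the infused mice run on across the groups, but nothing in the labels says that a run shares a litter, batch or day, and the block for runs of 4 changed no call of a member other than that of Osmr.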
